A study of Mus musculus with 15 samples.

Results

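The Cyp2c genes encode a family of cytochrome P450 enzymes, and 8 of them were followed here through mouse livers that lack JNK1 or JNK2, with or without the kinase regulator NEMO: Cyp2c29, Cyp2c37, Cyp2c38, Cyp2c39, Cyp2c50, Cyp2c54, Cyp2c55 and Cyp2c70. A member was taken as the row of the deposited expression table whose only platform gene symbol was that gene, with 1 probe set per gene. Each of the 8 had 1 such probe set, and all 8 were among the 19938 genes tested.

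Livers came from 15 C57BL/6 mice, 8 weeks old and labelled male, with each liver hybridised to its own Affymetrix array, and every one of the 5 groups held 3 mice. NEMO/Jnk1 DKO mice were globally Jnk1-/- and NEMO/Jnk2 DKO mice globally Jnk2-/-, and both carried NEMOΔhepa, the deletion of NEMO in hepatocytes by a Cre recombinase under the albumin promoter, so that other liver cells keep NEMO. Jnk1 KO and Jnk2 KO mice were globally Jnk1-/- or Jnk2-/- with NEMO intact, and WT mice were NEMO floxed/floxed, with a floxed but undeleted NEMO gene. NEMO, encoded by Ikbkg, is the regulatory subunit of the kinase complex that activates NF-kB, and JNK1 and JNK2, encoded by Mapk8 and Mapk9, are stress-activated kinases. A group with loss of NEMO alone was not analysed here, so the NEMO deletion is read against the matching single knockout.

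Cyp2c enzymes are haem proteins of the endoplasmic reticulum that receive electrons from NADPH-cytochrome P450 reductase and insert an oxygen atom into their substrate. In mouse liver they oxidise drugs and turn arachidonic and linoleic acid into epoxides and hydroxy acids, which are lipid mediators. Soluble epoxide hydrolase (Ephx2) then breaks down the epoxides. Several of the genes are induced by the xenobiotic receptors CAR (Nr1i3) and PXR (Nr1i2), depend on hepatocyte factors such as HNF4A, and are repressed in inflamed liver.

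The genes lie in 1 cluster on chromosome 19, from 38976662 to 40187286 in the RefSeq annotation of GRCm38.p6, a span of 1210.624 kb with 14 protein-coding Cyp2c genes and 4 pseudogenes. In chromosome order the members are Cyp2c55, Cyp2c29, Cyp2c39, Cyp2c38, Cyp2c37, Cyp2c54, Cyp2c50 and Cyp2c70, and the annotated span of Cyp2c39 (39347346 to 39569568) encloses Cyp2c38. They are close copies of each other, so a probe set can take up signal from a neighbour, and each value is that of its probe set. RefSeq promoter sequences were at hand for 7 of the 8, in 8 windows, since Cyp2c39 has an additional start site. Only its window at the annotated gene start was printed and aligned. The pseudogene Cyp2c72-ps (39347419 to 39360081) is annotated just after that start, which may not be the start used in liver. The windows of 3 genes that were lower and of 1 gene that was higher in NEMO/Jnk2 DKO livers are shown as 2 pairs of similar sequence: Cyp2c37 and Cyp2c50, whose transcripts moved the same way, and Cyp2c29 and Cyp2c39, whose transcripts moved in opposite directions. Each is on the plus strand, 5′ to 3′, and ends just before the annotated gene start, at chr19:39992174-39992423 for Cyp2c37, chr19:40089429-40089678 for Cyp2c50, chr19:39286835-39287043 for Cyp2c29 and chr19:39347096-39347345 for Cyp2c39. Capitals mark CAAAGTC, a core of the element bound by HNF4-type receptors.
Cyp2c37: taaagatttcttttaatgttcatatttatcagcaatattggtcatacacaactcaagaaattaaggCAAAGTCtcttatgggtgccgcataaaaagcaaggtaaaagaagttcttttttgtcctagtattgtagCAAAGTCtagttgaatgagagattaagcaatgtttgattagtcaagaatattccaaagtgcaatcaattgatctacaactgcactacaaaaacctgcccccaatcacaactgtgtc
Cyp2c50: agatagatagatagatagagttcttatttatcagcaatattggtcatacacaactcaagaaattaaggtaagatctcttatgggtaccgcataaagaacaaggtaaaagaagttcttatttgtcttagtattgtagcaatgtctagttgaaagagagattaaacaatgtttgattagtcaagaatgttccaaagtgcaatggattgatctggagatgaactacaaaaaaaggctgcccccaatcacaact
Cyp2c29: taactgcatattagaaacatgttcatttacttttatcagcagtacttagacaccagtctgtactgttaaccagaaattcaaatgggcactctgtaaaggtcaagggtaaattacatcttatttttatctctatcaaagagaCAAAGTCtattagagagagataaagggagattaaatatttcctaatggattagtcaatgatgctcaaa
Cyp2c39: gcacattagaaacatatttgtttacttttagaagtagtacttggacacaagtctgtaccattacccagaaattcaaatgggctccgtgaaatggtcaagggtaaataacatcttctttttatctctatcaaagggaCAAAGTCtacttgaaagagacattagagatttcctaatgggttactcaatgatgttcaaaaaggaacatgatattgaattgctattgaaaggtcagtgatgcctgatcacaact

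The windows of Cyp2c37 and Cyp2c50, both lower in NEMO/Jnk2 DKO, were identical at 84.3% of aligned positions (215 of 255). Those of Cyp2c29 and Cyp2c39, which went opposite ways, were identical at 74.1%, and those of Cyp2c38 and Cyp2c39 at 75.8%. Across the pairs shown, identity was 57.5% to 60.3%. Identity and motifs were read in the 250 bases before the RefSeq transcript start, a window that for Cyp2c29 runs past the annotated gene start at which its printed sequence ends. Searched on both strands, CAAAGTC stood in 5 of the 8 windows of members, in Cyp2c29, Cyp2c37, both starts of Cyp2c39 and Cyp2c70, against 3.84% of the 32851 RefSeq promoter windows of this length. It begins 184 and again 116 bases before the start of Cyp2c37, and the aligned window of Cyp2c50 has no copy. In Cyp2c39 it begins 114 bases before the start whose window is printed and 86 bases before the other start. The motif was chosen after these sequences were read. AGGTCA, a nuclear receptor half-site, stood in 3 of 8 windows (14.0% of all), TATAAA, the TATA box, in 4 of 8 (12.4% of all; the copy of Cyp2c29 lies beyond the printed stretch), and neither TGANTCA, the AP-1 site of the Jun proteins that JNK phosphorylates, nor TTCNNNGAA, a STAT site, stood in any of the 8 (6.75% and 7.02% of all). These searches used overlapping matches and describe letters in the window only.

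The levels are RMA values on a log2 scale, and array medians ran from 4.26 to 4.38. Mapk9, the gene of JNK2, read 2.39 to 3.28 in the 6 Jnk2-null arrays and 7.41 to 7.67 in the other 9. Mapk8, the gene of JNK1, separated the groups far less, at 5.87 to 6.53 in the 6 Jnk1-null arrays and 6.58 to 7.03 in the other 9, with no overlap but with NEMO/Jnk1 DKO replicate 3 (6.53) next to NEMO/Jnk2 DKO replicate 3 (6.58). Hepatocyte markers (7 of 8 measured) averaged 11.78 to 12.05 in the 15 arrays. The arrays labelled Jnk1 KO replicate 1 and Jnk2 KO replicate 3 went against their NEMO label: Ly6d read 10.1 and 9.70 there and Mmp12 8.66 and 8.20, against at most 5.35 and 4.88 in the other NEMO-intact arrays. In NEMO/Jnk1 DKO and NEMO/Jnk2 DKO arrays Ly6d ran from 7.88 to 10.48 and Mmp12 from 7.54 to 8.96. Ikbkg, the gene of NEMO, read 6.75 in Jnk1 KO replicate 1 and 6.24 in Jnk2 KO replicate 3. Its range over the DKO arrays was 6.18 to 6.85, while no remaining array labelled as having NEMO read below 7.03. Jnk1 KO replicate 1 and Jnk2 KO replicate 3 are called the 2 doubted arrays. Each comparison that uses them is given with and without them, which leaves n = 2 in Jnk1 KO and in Jnk2 KO. The arrays labelled Jnk1 KO replicate 1 and NEMO/Jnk1 DKO replicates 1 and 2 carried a female pattern, with Xist at 8.68, 9.17 and 9.08 (2.40 to 2.82 in the other 12 arrays) and a Y-linked mean of 2.75 to 2.98 (6.79 to 7.26 in the others).

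**Figure D1:**
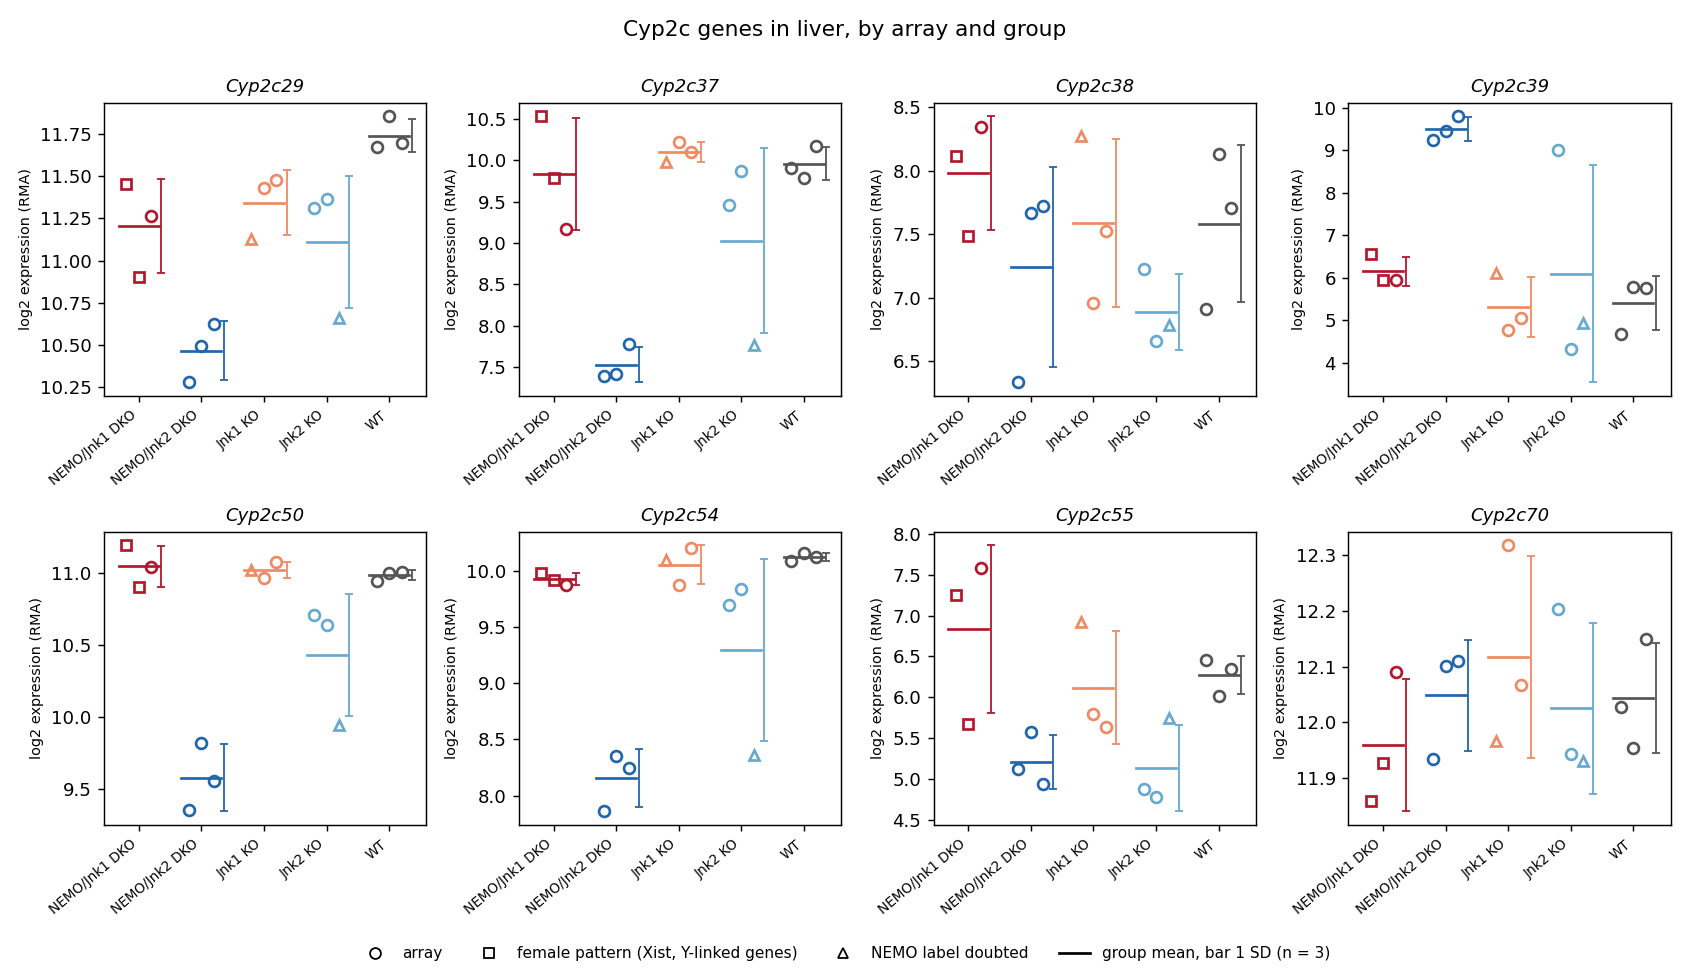
Expression (log2, RMA) of the 8 Cyp2c genes in each of the 15 arrays, by group, with the group mean (line) and 1 SD (bar, n = 3); squares mark arrays of the female pattern and triangles the 2 doubted arrays (Jnk1 KO replicate 1, which is both, is a triangle). Cyp2c37, Cyp2c50, Cyp2c54 and Cyp2c29 lie lowest in NEMO/Jnk2 DKO, Cyp2c39 lies at 9.24 to 9.79 there and at 9.01 in 1 Jnk2 KO array, and Cyp2c70 lies between 11.86 and 12.32 in all 15 arrays; the scale differs between panels.

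Livers that lacked both NEMO and Jnk2 had less mRNA of Cyp2c37, Cyp2c54, Cyp2c50 and Cyp2c29 and more of Cyp2c39, while Cyp2c70 stayed within its spread. Against WT, Cyp2c37 was 5.39-fold lower, Cyp2c54 3.91-fold lower, Cyp2c50 2.64-fold lower and Cyp2c29 2.41-fold lower in NEMO/Jnk2 DKO, and Cyp2c39 was 17.0-fold higher. By limma with Benjamini-Hochberg adjustment over the 19938 genes, 5 of the 8 members passed at an adjusted p under 0.05, 1 higher and 4 lower, beside 2.63% of all genes (0.873% higher and 1.76% lower). The median log2 difference was -1.17 over the members and -0.04 over all genes. Where arrays were quantile-normalised again, 497 genes passed (219 higher and 278 lower), against 525 (174 higher and 351 lower), and 5 members passed in both. Without the 2 doubted arrays 5 members passed too, 1 higher and 4 lower, beside 10.6% of all genes (5.75% higher and 4.86% lower). In whole liver, fewer cells of a type and less RNA per cell cannot be told apart for a single gene. Alb, the albumin gene and a hepatocyte marker, averaged 13.10 ± 0.02 in NEMO/Jnk2 DKO and 13.10 ± 0.06 in WT (SD, n = 3 each). The 7 measured hepatocyte markers together averaged lower, at 11.78 to 11.85 in NEMO/Jnk2 DKO arrays and 11.90 to 12.05 in WT arrays. Of these markers 0 of 7 passed, and Cyp2c70 was at 0.00.

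Cyp2c50, an epoxygenase of arachidonic and linoleic acid, read 9.36, 9.82 and 9.56 in NEMO/Jnk2 DKO and 10.95, 11.00 and 11.00 in WT. All 3 NEMO/Jnk2 DKO arrays lay below every array of WT and of each other group, and WT arrays hardly varied. The gene fell by 1.40 on the log2 scale (SE 0.17, 95% interval -1.76 to -1.04, limma adjusted p = 0.00152). Its means ran from 9.58 ± 0.23 in NEMO/Jnk2 DKO through 10.43 ± 0.42 in Jnk2 KO up to 11.04 ± 0.14 in NEMO/Jnk1 DKO, 11.02 ± 0.05 for Jnk1 KO and 10.98 ± 0.03 in WT (SD, n = 3 each), and the last 3 differed by less than the SD of NEMO/Jnk1 DKO.

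Cyp2c54, a neighbouring epoxygenase of the same fatty acids, read 7.86, 8.35 and 8.25 in NEMO/Jnk2 DKO and 10.08, 10.16 and 10.12 in WT. Both groups were tight and did not overlap, and the lowest array of any other group was the doubted Jnk2 KO replicate 3 at 8.37, just above the highest NEMO/Jnk2 DKO array. The gene fell by 1.97 (SE 0.28, limma adjusted p = 0.00529). Its means were 8.15 ± 0.26 in NEMO/Jnk2 DKO, 9.30 ± 0.81 in Jnk2 KO, 9.92 ± 0.05 in NEMO/Jnk1 DKO, 10.05 ± 0.17 in Jnk1 KO and 10.12 ± 0.04 in WT (SD, n = 3 each).

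Cyp2c37, which in mouse forms hydroxy acids from arachidonic acid and is a CAR target, read 7.39, 7.42 and 7.77 in NEMO/Jnk2 DKO and 9.91, 9.79 and 10.17 in WT. The groups did not overlap, and the 3 NEMO/Jnk2 DKO arrays were the lowest of the 15 but for the doubted Jnk2 KO replicate 3, which at 7.76 lay among them. The gene fell by 2.43 (SE 0.42, limma adjusted p = 0.0135). The call was lost without NEMO/Jnk2 DKO replicate 1, WT replicate 2 or WT replicate 3 (adjusted p = 0.0705, 0.0620 and 0.0527), with the difference at -2.51 to -2.32. Its means were 7.53 ± 0.21 in NEMO/Jnk2 DKO, 9.03 ± 1.11 in Jnk2 KO, 9.83 ± 0.68 in NEMO/Jnk1 DKO, 10.10 ± 0.12 in Jnk1 KO and 9.96 ± 0.20 in WT (SD, n = 3 each), and all but the first lay within 1 SD of Jnk2 KO of each other.

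Cyp2c29, an abundant liver epoxygenase that CAR activators induce, read 10.28, 10.50 and 10.62 in NEMO/Jnk2 DKO and 11.67, 11.85 and 11.69 in WT. The NEMO/Jnk2 DKO arrays were the lowest 3 of all, and WT the highest 3 of all, with the remaining groups between. The gene fell by 1.27 (SE 0.18, limma adjusted p = 0.00596). The calls of Cyp2c29, Cyp2c50 and Cyp2c54 were made in all 26 alternatives tried. Cyp2c29 averaged 10.47 ± 0.17 in NEMO/Jnk2 DKO, 11.20 ± 0.28 in NEMO/Jnk1 DKO, 11.34 ± 0.19 in Jnk1 KO, 11.11 ± 0.39 in Jnk2 KO and 11.74 ± 0.10 in WT (SD, n = 3 each), and the 3 groups between NEMO/Jnk2 DKO and WT differed by less than the SD of Jnk2 KO.

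Cyp2c39, an enzyme known in mouse for the hydroxylation of retinoic acid, read 9.24, 9.44 and 9.79 in NEMO/Jnk2 DKO and 4.67, 5.78 and 5.76 in WT. It was the single member past the test in the upward direction, and 1 array outside that group came near: Jnk2 KO replicate 1, not a doubted array, at 9.01. The gene rose by 4.09 (SE 0.86, 95% interval 2.24 to 5.94, limma adjusted p = 0.0303). Its spread came largely from that array, since without Jnk2 KO replicate 1 the SE was 0.36 and the adjusted p 0.000264. That array holds the outlying value of Cyp2c39 itself, so the smaller p is no independent evidence. The call was lost without any one of the 6 arrays compared (adjusted p from 0.0722 to 0.109) and with an intensity trend and a robust prior (0.0609), with the difference between 3.72 and 4.27 in these. Over the groups it averaged 9.49 ± 0.28 in NEMO/Jnk2 DKO, 6.15 ± 0.34 in NEMO/Jnk1 DKO, 5.30 ± 0.71 in Jnk1 KO, 6.09 ± 2.55 in Jnk2 KO and 5.40 ± 0.63 in WT (SD, n = 3 each).

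Among the other members, Cyp2c55, which in mouse is found in liver and gut and is induced through CAR and PXR, read 5.12, 5.58 and 4.93 in NEMO/Jnk2 DKO and 6.46, 6.01 and 6.35 in WT. The groups did not overlap, but the difference of -1.06 (SE 0.44) had a limma adjusted p of 0.213, and it passed in 3 of 26 alternatives, with p as low as 0.00799 where only the 6 arrays compared were fitted. In all, 6 of the 8 members did not overlap between NEMO/Jnk2 DKO and WT, 1 higher and 5 lower, beside 27.8% of all genes. Cyp2c38, an epoxygenase, ranged from 6.33 to 7.72 in NEMO/Jnk2 DKO and from 6.91 to 8.13 in WT, with a difference of -0.34 (95% interval -1.23 to 0.55, adjusted p = 0.728). Cyp2c70, which makes muricholic acids, the hydrophilic bile acids of rodents, averaged 12.05 ± 0.10 in NEMO/Jnk2 DKO and 12.04 ± 0.10 in WT (SD, n = 3 each), and the interval of its difference ran from -0.24 to 0.25. In the remaining groups Cyp2c70 averaged 11.96 ± 0.12 in NEMO/Jnk1 DKO, 12.12 ± 0.18 in Jnk1 KO and 12.03 ± 0.15 in Jnk2 KO, so no neighbours in the order of its levels differed by more than their SD. Cyp2c38 averaged 7.98 ± 0.45 in NEMO/Jnk1 DKO, 7.24 ± 0.79 in NEMO/Jnk2 DKO, 7.59 ± 0.66 in Jnk1 KO, 6.89 ± 0.30 in Jnk2 KO and 7.58 ± 0.62 in WT, with overlapping arrays in NEMO/Jnk2 DKO and each other group. Cyp2c55 was more spread, at 6.83 ± 1.03 in NEMO/Jnk1 DKO and 6.12 ± 0.70 in Jnk1 KO (SD, n = 3 each).

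**Figure D2:**
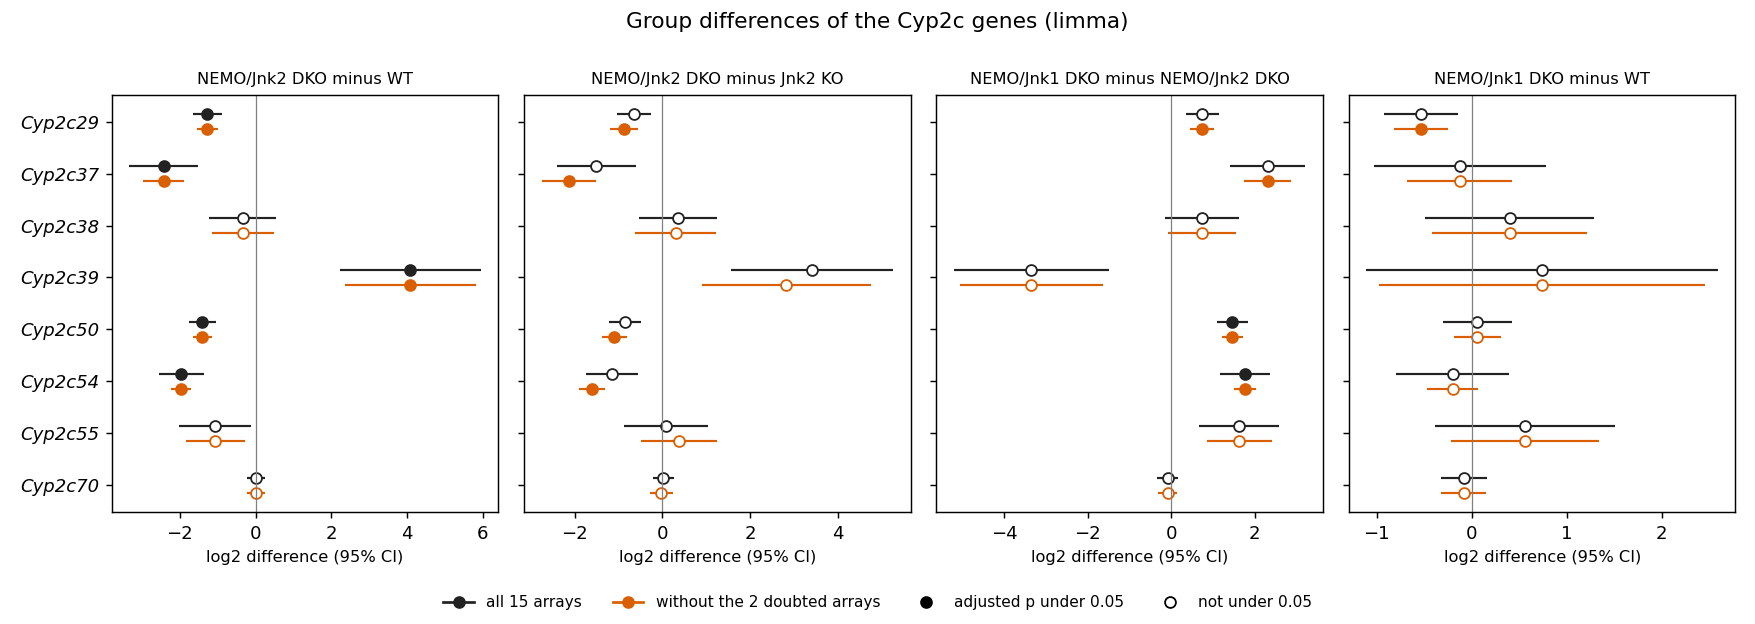
Log2 difference (point) with its 95% confidence interval for each gene in 4 comparisons, from limma over all 15 arrays (black) and without the 2 doubted arrays (orange); filled points have an adjusted p under 0.05. In NEMO/Jnk2 DKO minus WT, 4 genes are filled left of 0 and Cyp2c39 right of it, and the difference of Cyp2c70 is at 0.00; the horizontal scale differs between panels.

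Whether the NEMO deletion itself goes with these levels on the Jnk2-null background was read from NEMO/Jnk2 DKO against Jnk2 KO. As labelled, 0 of 8 members passed, beside 0.00502% of all genes (limma, 1 gene of 19938, and 1578 at an unadjusted p under 0.05, among them 5 of the members). Without the 2 doubted arrays, 4 members fell, beside 5.85% of all genes (1.98% lower): Cyp2c54 by 1.61 (limma adjusted p = 3.9e-05), Cyp2c50 by 1.09 (adjusted p = 0.000395), Cyp2c37 by 2.13 (adjusted p = 0.000953) and Cyp2c29 by 0.87 (adjusted p = 0.00385). Leaving out Jnk2 KO replicate 3 alone gave the same count of 4. Since the doubted arrays were set aside for their expression, the counts without them are no independent evidence.

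The array labelled Jnk2 KO replicate 3 stood apart from the other Jnk2 KO arrays in these 4 genes but not in Cyp2c39. Cyp2c50 read 9.95 in it, against 10.70 and 10.64 in Jnk2 KO replicates 1 and 2, and Cyp2c29 read 10.66, against 11.31 and 11.36. Cyp2c37 read 7.76 in it, against 9.46 and 9.86. In each it lay close to the NEMO/Jnk2 DKO arrays, whereas its Cyp2c39 of 4.93 lay with WT. The doubted Jnk1 KO replicate 1 had Cyp2c37, Cyp2c50 and Cyp2c54 at 9.98, 11.02 and 10.09, inside or next to the range of the other Jnk1 KO arrays. It stood apart from them in Cyp2c29 (11.12, against 11.43 and 11.47), Cyp2c38 (8.28, against 6.96 and 7.53), Cyp2c39 (6.11, against 4.76 and 5.04) and Cyp2c55 (6.92, against 5.80 and 5.64).

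Cyp2c39 had a difference of 3.40 between NEMO/Jnk2 DKO and Jnk2 KO as labelled (SE 0.86, limma adjusted p = 0.512) and of 2.83 without the 2 doubted arrays (SE 0.89, adjusted p = 0.0883). The Jnk2 KO arrays read 9.01, 4.32 and 4.93, so 1 of the 3 was near the NEMO/Jnk2 DKO range and the others were not. Without Jnk2 KO replicate 1 the difference was 4.87 (SE 0.40, adjusted p = 0.000507), the only pass in 26 alternatives. The array left out there is the outlier of Cyp2c39 itself, so that p is no independent evidence. Cyp2c55 was low in both, at 5.21 ± 0.33 in NEMO/Jnk2 DKO and 5.13 ± 0.53 in Jnk2 KO (SD, n = 3 each; difference 0.08, 95% interval -0.87 to 1.03). Between NEMO/Jnk2 DKO and Jnk2 KO, 4 members did not overlap as labelled, Cyp2c39 higher and Cyp2c29, Cyp2c50 and Cyp2c54 lower, beside 11.7% of all genes.

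**Figure D3:**
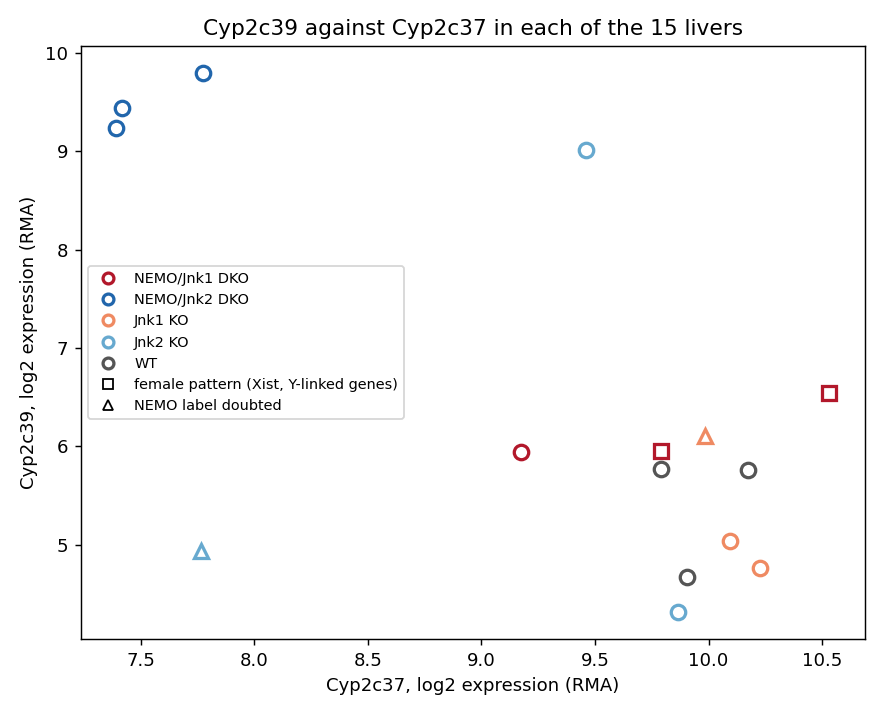
Cyp2c39 (vertical axis, log2) against Cyp2c37 (horizontal axis, log2) in each of the 15 livers, coloured by group, with squares for arrays of the female pattern and triangles for the 2 doubted arrays (Jnk1 KO replicate 1 is both). The 3 NEMO/Jnk2 DKO livers hold the upper left corner, with Cyp2c37 at most 7.77 and Cyp2c39 at least 9.24; Jnk2 KO replicate 1 shares the high Cyp2c39 and the doubted Jnk2 KO replicate 3 the low Cyp2c37.

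The double knockouts differed from each other in the same cluster. With NEMO deleted in both, livers that also lacked Jnk1 had more Cyp2c50 (1.46, SE 0.17, limma adjusted p = 0.00173) and Cyp2c54 (1.77, SE 0.28, adjusted p = 0.0247) than livers that also lacked Jnk2. These were 2 of the 8 members, both higher in NEMO/Jnk1 DKO, beside 0.105% of all genes (0.0451% higher), and the median difference was 1.10 over the members and 0.00 over all genes.

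Cyp2c50 read 11.19, 10.90 and 11.04 in NEMO/Jnk1 DKO, against 9.36, 9.82 and 9.56 in NEMO/Jnk2 DKO. Cyp2c54 read 9.98, 9.91 and 9.87 in NEMO/Jnk1 DKO, against 7.86, 8.35 and 8.25 in NEMO/Jnk2 DKO. Neither gene overlapped between the groups, and in NEMO/Jnk1 DKO both stood near the WT level. Cyp2c37 read 10.53, 9.79 and 9.17 in NEMO/Jnk1 DKO, all above NEMO/Jnk2 DKO, with a difference of 2.30 (SE 0.42, adjusted p = 0.0647). Cyp2c39 read 6.54, 5.95 and 5.95 in NEMO/Jnk1 DKO, all below NEMO/Jnk2 DKO, with a difference of -3.34 (SE 0.86, adjusted p = 0.282). Without Jnk2 KO replicate 1, the outlier of this same gene, the difference was of the same size with an adjusted p of 0.00146. Cyp2c39 passed here in 2 of 26 alternatives. Cyp2c29 (0.74) and Cyp2c55 (1.63) did not overlap either, which made 6 members, 5 higher and 1 lower, beside 12.6% of all genes.

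Without the 2 doubted arrays 4 members were higher in NEMO/Jnk1 DKO than in NEMO/Jnk2 DKO, beside 0.321% of all genes (0.181% higher), with Cyp2c37 (adjusted p = 0.000832) and Cyp2c29 (adjusted p = 0.0312) added. The comparison also sets 2 arrays of the female pattern in NEMO/Jnk1 DKO against none in NEMO/Jnk2 DKO. With sex as a term only Cyp2c50 passed (1.46, adjusted p = 0.0205) and Cyp2c54 stood at 1.72 (adjusted p = 0.181). Without the 3 arrays of the female pattern, where NEMO/Jnk1 DKO is its replicate 3 alone and is assumed to vary like the other groups, 0 members passed, with Cyp2c50 at 1.46 (adjusted p = 0.158). The call of Cyp2c54 was lost without any one of the 6 arrays compared (adjusted p from 0.0697 to 0.167), and that of Cyp2c50 was kept.

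Against WT, 0 of 8 members passed in NEMO/Jnk1 DKO, beside 0.0652% of all genes (limma, 13 genes, with 1 member at an unadjusted p under 0.05). Cyp2c29 read 11.45, 10.90 and 11.26 in NEMO/Jnk1 DKO, all below the 3 WT arrays, with a difference of -0.53 (SE 0.18, adjusted p = 0.180). It fell by the same 0.53 with an adjusted p of 0.0244 without the 2 doubted arrays, where 7.91% of all genes passed (2.99% lower). With a sex term added to that the call was lost (-0.48, adjusted p = 0.319) and 262 genes passed, against 1578; 2 of the 3 NEMO/Jnk1 DKO arrays and none of WT have the female pattern. For Cyp2c50 the difference of 0.06 had an interval of -0.30 to 0.42, and for Cyp2c37 the difference of -0.13 had one of -1.03 to 0.78. Between NEMO/Jnk1 DKO and Jnk1 KO, 0 of 8 members passed, as did 0.0% of all genes (limma, with 908 genes at an unadjusted p under 0.05), and 0 of 8 passed without the doubted arrays, where 5.18% of all genes did. The difference of Cyp2c55 was 0.72 as labelled and 1.12 without the doubted arrays (adjusted p = 0.962 and 0.153). Leaving out the doubted arrays removes the only Jnk1 KO array of the female pattern, which 2 of the 3 NEMO/Jnk1 DKO arrays have. With a sex term added to that fit, 242 genes and 0 members passed by limma, against 1033 genes without the term. None of the 8 was free of overlap between these 2 groups, beside 6.69% of all genes, and between NEMO/Jnk1 DKO and WT 3 were, Cyp2c39 higher and Cyp2c29 and Cyp2c54 lower, beside 25.5%.

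Whether the NEMO deletion goes with different Cyp2c levels on the Jnk1-null and the Jnk2-null background was tested as the NEMO effect on the first minus that on the second. As labelled 0 members passed, and 0.0% of all genes (limma, 548 at an unadjusted p under 0.05), with Cyp2c50 at 0.87 (SE 0.24) and Cyp2c54 at 1.01 (SE 0.39), both with an adjusted p of 1.00. Without the 2 doubted arrays Cyp2c54 passed (1.49, SE 0.20, adjusted p = 0.0403), 1 of the 2 genes that did (0.01% of all, both higher), and Cyp2c50 was at 1.11 (SE 0.18, adjusted p = 0.0723). Leaving out Jnk2 KO replicate 3 alone gave Cyp2c54 an adjusted p of 0.0441. With a sex term added to the fit without the doubted arrays, 0 members and 0 genes passed by limma (1161 genes at an unadjusted p under 0.05), with Cyp2c54 at 1.45 (SE 0.24, adjusted p = 0.299) and Cyp2c50 at 1.11 (adjusted p = 0.371).

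With NEMO intact, 0 of 8 members passed in any of 3 comparisons: Jnk1 KO against WT (0.01% of all genes passed), Jnk2 KO against WT (0.411%) and Jnk1 KO against Jnk2 KO (0.13%), by limma. In Jnk2 KO, Cyp2c29 (-0.63, adjusted p = 0.171), Cyp2c50 (-0.55, 0.192), Cyp2c54 (-0.82, 0.236) and Cyp2c55 (-1.14, 0.307) lay below WT in all 3 arrays, 4 members beside 17.0% of all genes. Without the doubted arrays 0 of 8 passed in these 3 comparisons (beside 0.015%, 1.24% and 0.597% of all genes in the same order), and the differences of Cyp2c50 and Cyp2c54 in Jnk2 KO were -0.31 and -0.36. In Jnk1 KO the difference of Cyp2c50 from WT was 0.04 (95% interval -0.33 to 0.40), and Cyp2c29 alone did not overlap with WT, being lower, beside 8.66% of all genes. The number of arrays limits the precision of all these values.

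Other genes of the cluster and its surroundings were set beside the members. Of the 5 other Cyp2c genes with a symbol of their own, Cyp2c68 fell in NEMO/Jnk2 DKO against WT (-0.72, SE 0.17, limma adjusted p = 0.0469), with 8.72, 9.03 and 8.77 in NEMO/Jnk2 DKO and 9.44, 9.65 and 9.59 in WT. Cyp2c67 (-0.56, adjusted p = 0.101), Cyp2c66 (-0.45, 0.110), Cyp2c65 (-0.13, 0.630) and Cyp2c23 (-0.07, 0.867) did not pass. The 10 measured genes on each side of the cluster had NEMO/Jnk2 DKO minus WT differences from -0.30 (Fra10ac1) to 1.15 (Entpd1), with a median of 0.02, so the decreases of over 1 lay inside the cluster among the genes plotted.

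**Figure D4:**
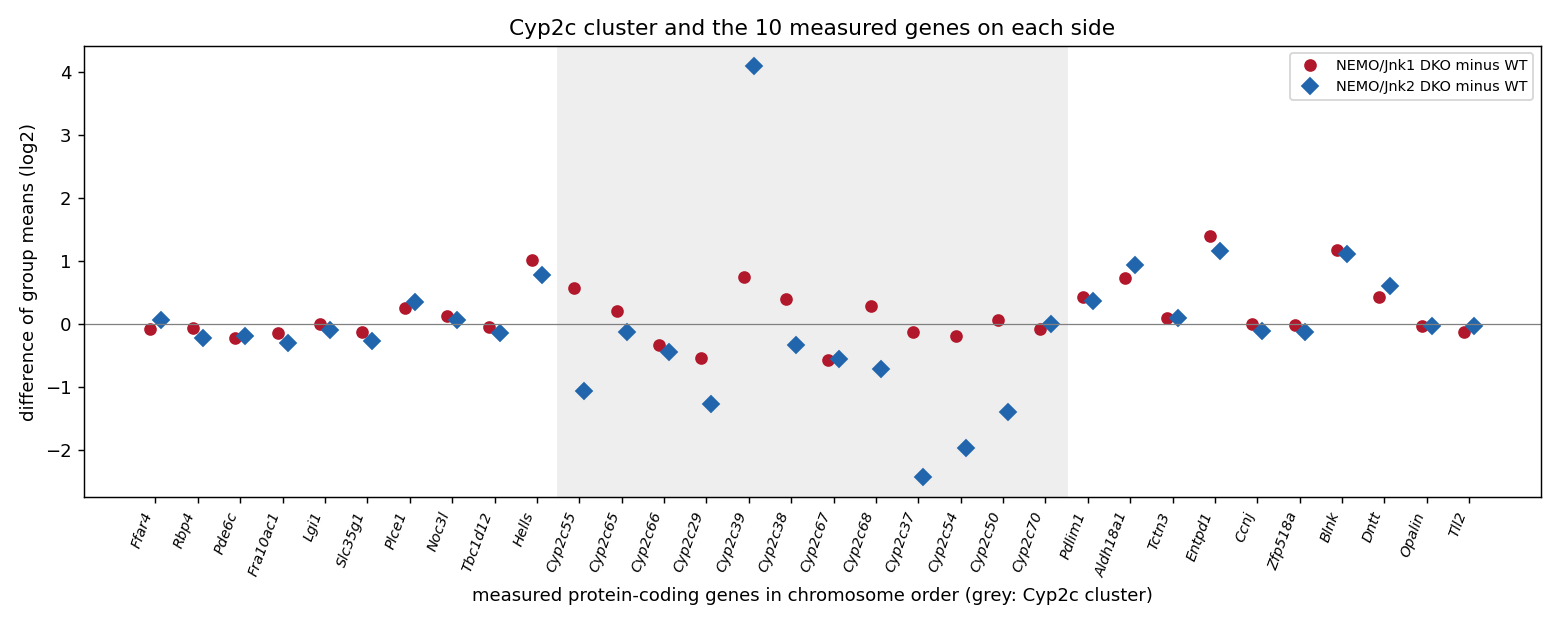
Difference of group means from WT (log2) for NEMO/Jnk1 DKO (circles) and NEMO/Jnk2 DKO (diamonds) of the measured protein-coding genes of the Cyp2c cluster (grey) and the 10 measured genes on each side, in chromosome order. Cyp2c39 at 4.09 and the adjoining Cyp2c37, Cyp2c54 and Cyp2c50 at -2.43, -1.97 and -1.40 stand out in NEMO/Jnk2 DKO, while Cyp2c70 next to them is at 0.00 and the flanking genes reach 1.15.

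The genes that act with or on the family were read in the same comparison, NEMO/Jnk2 DKO against WT, in which 2.63% of all genes passed. Of 5 measured genes listed as partners of the enzymes, 0 passed: Cyb5a, Cyb5b, Cyb5r3, Pgrmc1 and Hmox1. The haem-binding partner Pgrmc1 was at -0.10 and Cyb5a, which encodes cytochrome b5, at -0.28 (limma adjusted p = 0.153). Hmox1, which encodes a haem-degrading enzyme and no electron donor, averaged 7.81 in NEMO/Jnk2 DKO and 6.51 in WT. The gene of the P450 reductase was not among the 5 measured. Of 19 transcription factors and receptors known to act on Cyp2c genes, 1 fell: Foxa1, a hepatocyte pioneer factor, by 0.75 (adjusted p = 0.0338). Foxa1 was low in both double knockouts, averaging 5.95 in NEMO/Jnk2 DKO, 6.07 in NEMO/Jnk1 DKO and 6.70 in WT. Nr1i3 (CAR) was at -0.75 (adjusted p = 0.0978, and 0.0356 without the doubted arrays), Nr1i2 (PXR) at -0.01 and Hnf4a at 0.05. Nr1i3 was as low in Jnk2 KO, averaging 8.42 there, 8.47 in NEMO/Jnk2 DKO, 9.04 in NEMO/Jnk1 DKO and 9.22 in WT. Of 12 other CAR and PXR targets, Slco1a4, an uptake transporter of organic anions, fell by 3.65 (adjusted p = 0.00617). It read 4.96, 5.18 and 5.91 in NEMO/Jnk2 DKO and 9.03, 9.14 and 8.82 in WT, and it was also higher in NEMO/Jnk1 DKO than in NEMO/Jnk2 DKO (3.14, adjusted p = 0.0443). Cyp3a11, a PXR target, was at 0.07 and Cyp2b10, the classical CAR target, at 1.08 (adjusted p = 0.307).

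Of 13 genes of epoxide and eicosanoid metabolism, Cyp4f14, an omega-hydroxylase, fell by 0.77 (limma adjusted p = 0.0318), and Ephx2 was at -0.64 (adjusted p = 0.0534). Of 19 other drug-metabolising P450 genes, 2 fell, Cyp2e1 by 0.74 (adjusted p = 0.00717) and Cyp2d22 by 0.52 (adjusted p = 0.0473). Of 14 pericentral genes, which hepatocytes near the central vein express, Cyp2e1 and the glutamate transporter gene Slc1a2 (-1.61, adjusted p = 0.0356) fell and the ammonium transporter gene Rhbg rose by 0.83 (adjusted p = 0.0424), and 0 of 11 periportal genes passed. The 14 pericentral genes together averaged 8.16 to 8.24 in NEMO/Jnk2 DKO arrays and 8.48 to 8.73 in WT arrays. They averaged 8.22 to 8.35 in Jnk2 KO, 8.41 to 8.68 in NEMO/Jnk1 DKO and 8.51 to 8.71 in Jnk1 KO. The 11 periportal genes averaged 10.77 to 10.86 in NEMO/Jnk2 DKO and 10.86 to 11.00 in WT. Hepatocyte markers averaged 11.78 to 11.85 in NEMO/Jnk2 DKO and 11.90 to 12.05 in WT, with 0 of 7 past the test. Macrophage markers (6 of 6 measured) averaged 7.40 to 7.90 in NEMO/Jnk2 DKO and 6.14 to 6.91 in WT, with 1 of 6 past the test (Adgre1, higher by 1.17, adjusted p = 0.0338), and stellate cell markers (6 of 6) 7.20 to 7.56 in NEMO/Jnk2 DKO and 6.28 to 6.56 in WT, with 0 of 6 past it. In NEMO/Jnk1 DKO the macrophage markers averaged 7.54 to 8.00 and the stellate cell markers 7.51 to 7.72, all above WT. Male-biased liver genes (19 measured) averaged 8.94 to 9.62 in NEMO/Jnk2 DKO, 9.34 to 9.79 in Jnk2 KO and 10.09 to 10.50 in WT. In NEMO/Jnk1 DKO replicate 3, which lacks the female pattern, they averaged 9.63. Female-biased liver genes (19 measured) overlapped, at 4.86 to 5.34 in NEMO/Jnk2 DKO and 4.34 to 4.90 in WT. The part of these lists in the Cyp2c differences was not tested.

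For members whose group means spanned over 1 log2, the genes outside the family most alike over the 15 arrays were taken by the smallest root mean square difference after each gene was centred on its own mean, as a description over arrays of 5 groups. Cyp2c50 was closest to Ces1d (0.204) and Car5a (0.224), and Cyp2c54 to Car5a (0.356) and Ces1d (0.370). Cyp2c37 was closest to Lrtm1 (0.584), Cyp2c38 to Ank3 (0.339), and Cyp2c29 to Car8 (0.177) and Klb (0.178). Within the family Cyp2c50 and Cyp2c54 differed by 0.251, nearer to Cyp2c54 than any gene outside it, and Cyp2c37 and Cyp2c54 by 0.378. For Cyp2c39 the closest gene, Orm2, was 1.37 away, against 1.84 for the spread of Cyp2c39 about its own mean, and for Cyp2c55 it was Slc26a10 (0.446, against 0.830).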

How the data were processed

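RNA of whole liver was measured on Affymetrix whole-transcript arrays, 1 per mouse. The authors deposited log2 expression values normalised by RMA, per the submitters' processing notes, whose version is not given in the sources used here, and base 2 was taken from their range. Of 35556 probe sets, 21789 had 1 gene symbol in the platform's annotation, 1621 several and 12146 none listed. The 21789 gave 19938 genes, each by its probe set with the highest mean. Only members with 1 symbol were used, so that a probe set shared by other Cyp2c genes was left out.

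Each comparison was fitted with limma 3.58.1 in R 4.3.3 (lmFit, eBayes) on all 15 arrays, each group with its own mean (10 residual and 3.75 prior degrees of freedom), with Benjamini-Hochberg adjustment over all genes and a threshold of 0.05. The members, the gene lists, the tests and the alternatives were chosen with earlier results of these data known. All 8 members and the listed genes that passed, or had the lowest p, are named. The fit was tested on simulated data for NEMO/Jnk2 DKO against Jnk2 KO only. Log2 changes of 0.5, 1 and 2 were recovered in 38.8%, 91.0% and 100% of the changed genes, and 13 unchanged genes were called. The simulated errors were independent and normal, with no doubted arrays and no sex difference, so the simulation does not bear on those. Of 212 listed symbols 186 were measured. No 2 arrays were identical. Pairs of arrays correlated at 0.976 to 0.991. Alternatives were a fit of the arrays compared only, a trended robust prior, quantile normalisation again, median centring, a filter on dim probe sets (above 4.09 in 3 arrays), every probe set, a replicate block, arrays left out, and a sex term. Promoter windows of 250 bases (209 for Cyp2c29, up to its annotated gene start) came from RefSeq, GRCm38.p6, and were aligned with Biopython 1.88. Figures used Python 3.11.15 and matplotlib 3.10.9.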

Additional observations from a re-analysis of the deposited data

How the results depend on the processing

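The calls of Cyp2c29, Cyp2c50 and Cyp2c54 between NEMO/Jnk2 DKO and WT were made in all 26 alternatives, that of Cyp2c37 in 23 and that of Cyp2c39 in 19. The count of members past the test there was 5, and 3 to 5 with 1 array left out. It was 0 between NEMO/Jnk2 DKO and Jnk2 KO as labelled, 4 without the 2 doubted arrays, 4 with a sex term added to that, and 0 to 4 with 1 array left out. Between NEMO/Jnk1 DKO and NEMO/Jnk2 DKO it was 2, but 4 without the doubted arrays, 1 with a sex term, 0 once the 3 arrays of female pattern were left out, and 1 to 3 with 1 array left out. It was 1 instead of 0 without the doubted arrays for NEMO/Jnk1 DKO against WT and for the difference of the NEMO effects, where leaving out 1 array gave 0 to 1; both were 0 without the doubted arrays and with a sex term. The cause of these changes was not tested. Over all genes, 525 passed between NEMO/Jnk2 DKO and WT, against 1919 with only the arrays compared, 2116 without the doubted arrays, 1035 with a sex term and 1171 without the arrays of the female pattern. The labels reuse replicate numbers across groups and name no pairing of mice. Residuals of same-numbered arrays correlated at a median of 0.000127 (30 pairs, -0.395 to 0.304). Those of other pairs ran from -0.463 to 0.569 (60 pairs). These values do not settle whether same-numbered arrays were handled together. With a replicate block the count of members was 5 for NEMO/Jnk2 DKO against WT and 2 between the double knockouts, as without it, and 263 of all genes passed in the first.

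The sign turned in members that passed no test in the comparison named. Cyp2c38 was at -0.677 to 0.11 in NEMO/Jnk2 DKO against WT with 1 array left out. Cyp2c55 was at -0.105 to 0.382 in NEMO/Jnk2 DKO against Jnk2 KO with 1 array left out. Cyp2c70 in NEMO/Jnk2 DKO against WT was at -0.0632 with median centring and at -0.0402 to 0.0618 with 1 array left out. Against Jnk2 KO it was at -0.0479 with median centring, at -0.0243 without the doubted arrays with or without the sex term, and as low as -0.0243 with 1 array left out. Between NEMO/Jnk1 DKO and NEMO/Jnk2 DKO it was at 0.0518 with the sex term and at 0.0422 without the arrays of the female pattern.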

Other observations

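Bile acid synthesis genes, listed because Cyp2c70 acts on bile acids, were read in the same comparison. Of 12 measured, 4 fell in NEMO/Jnk2 DKO against WT (limma, beside 2.63% of all genes): Cyp8b1, the sterol 12-hydroxylase, by 1.65 (adjusted p = 0.0345), Akr1d1 by 0.64 (0.0416), Akr1c6 by 0.58 (0.00952) and Hsd3b7 by 0.51 (0.0191). Cyp7a1, which starts the pathway, was at -0.33 (adjusted p = 0.768). The median difference of the 12 genes was -0.55, against -0.04 over all genes. Together they averaged 9.74 to 10.04 in NEMO/Jnk2 DKO arrays and 10.39 to 10.64 in WT arrays. They lay below WT in Jnk2 KO (9.94 to 10.06) and NEMO/Jnk1 DKO (9.91 to 10.23) too, and ran from 9.96 to 10.57 in Jnk1 KO.

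The array labelled Jnk2 KO replicate 1 read 9.01 for Cyp2c39, while its Ly6d (5.35) and Mmp12 (3.71) were at the level of the NEMO-intact arrays and its Cyp2c37 (9.46) and Cyp2c54 (9.69) were near those of Jnk2 KO replicate 2 (9.86 and 9.83). A high Cyp2c39 was seen in 4 of the 6 Jnk2-null arrays and in none of the other 9, whose highest value was 6.54.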
